A study of Rattus norvegicus with 3 samples.

Results

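The subunits of the mitochondrial respiratory chain and of ATP synthase that are encoded in the nucleus were followed in tendon stem/progenitor cells (TSPCs) of the rat. The members were taken by gene symbol: the *Nduf* subunits of complex I, the *Sdh* genes of complex II, the *Uqcr* genes and *Cyc1* of complex III, cytochrome c, the *Cox4* to *Cox8* families of complex IV and the *Atp5* genes. Of 31042 probe sets, 89 carried a single symbol of this kind. They stand for 80 of the 14217 named genes, with 33 genes in complex I, 4 in complex II, 8 in complex III, 19 in complex IV and 16 in ATP synthase. A further 9 probe sets list a gene of these families together with a near copy or another gene and were left out, so *Cycs*, *Cox7a2*, *Uqcrb*, *Ndufs5*, *Ndufa10*, *Atp5mc1* and *Atp5mc2* have no value here.

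The TSPCs came from Achilles tendons of rats that were 1 day (TSPCs-1d), 7 days (TSPCs-7d) or 56 days old (TSPCs-56d), and the tendons of more than 1 animal were mixed for each age. The study used Sprague-Dawley rats, the cultures grew from many colonies rather than 1 clone, and signals are given below by the age of the rats (day 1, day 7 and day 56). The cells were put in Trizol without a drug or gene transfer named in the labels, had been cultured in low glucose medium with fetal bovine serum, and were used at passage 2. RNA was measured on 3 Affymetrix Rat Genome 230 2.0 arrays, 1 per age, so each value below is a single measurement with no replicate to check it against, and no test was run. The tendon genes *Scx* (2255 at day 1, 2578 at day 7 and 2569 at day 56) and *Col1a1* (14491 at day 1, 14736 at day 7 and 14286 at day 56) were bright on all arrays. Other tendon markers varied with age. Of 8 measured, 2 were more than 2-fold higher at day 56 than at day 1 (2% of all genes) and 1 lower (1.77%). The higher ones were *Thbs4* (76.5, 340 and 348 by age) and *Tnc* (5280, 7302 and 11185), and the lower one was *Tnmd* (543, 351 and 158).

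The respiratory chain passes electrons from NADH and succinate to oxygen. Complex I oxidizes NADH in its matrix arm and pumps protons through its membrane arm, complex II is the succinate dehydrogenase of the TCA cycle, complex III hands electrons to cytochrome c, and complex IV (cytochrome c oxidase) reduces oxygen. ATP synthase uses the proton gradient, with the catalytic F1 head in the matrix and a rotor and stator in the membrane. Several subunits of complex IV exist as a widespread form and a form of heart and skeletal muscle, lung or testis. The nuclear respiratory factor NRF1, the ETS factor GABP (also called NRF2), the estrogen-related receptors (ERR) and YY1 are known regulators of these genes in mammals.

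Promoter windows of 300 bases (250 before and 50 after the start, RefSeq, GRCr8) were matched by gene ID for 71 of the 80 genes. Motifs were searched on both strands. A match is a stretch of letters and not a measured binding site. The YY1 motif GCCATNTTG was present in 19 of the 71 genes (26.8%), against 4.57% of 11700 genes on the array with a window. The ERR motif AAGGTCA was present in 11 genes (15.5%), against 3.45%. The ETS motif CCGGAAG was present in 20 (28.2%), against 15.4%, and the NRF1 motif in 13 (18.3%), against 8.63%. At least 1 of these 4 was present in 44 genes (62.0%), against 27.9% of the genes on the array. Shares near those of the array were found for the hypoxia response core GCGTG (46.5% of the members, against 46.9%), the E box CAGCTG (15.5%, against 17.4%) and the TATA box TATAAA (11.3%, against 9.07%). Over all 33469 windows of the table, of which many belong to genes that are not on the array, the shares were 2.80% for YY1, 4.61% for ERR, 8.75% for ETS, 4.25% for NRF1, 29.7% for the hypoxia core, 15.1% for the E box and 14.2% for the TATA box. Matches of different motifs overlapped in 2 of the 71 windows.

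**Figure D1:**
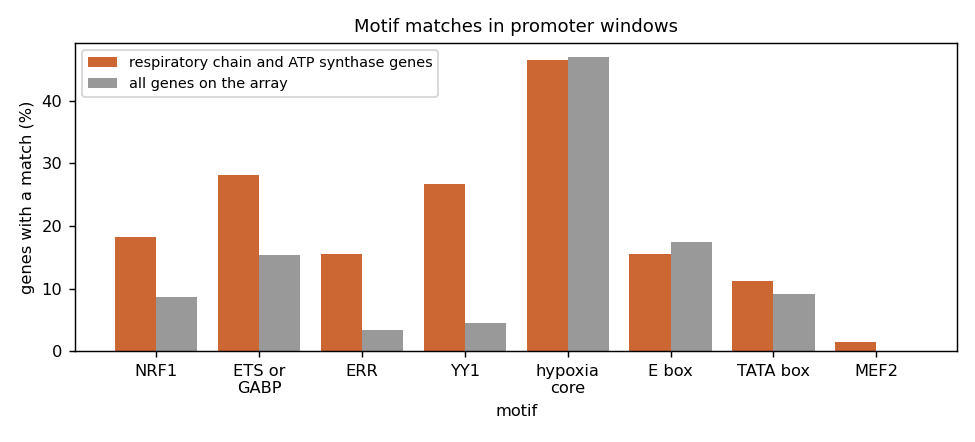
Share of genes with a motif in the promoter window (percent, axis from 0), for the respiratory chain and ATP synthase genes (left bars, 71 genes) and for all genes on the array with a window (right bars, 11700 genes). The YY1 bar is 26.8% for the members and 4.57% for the array, while the bars for the hypoxia core stand at 46.5% and 46.9%. The MEF2 motif was added after the *Cox6a2* window had been seen, so its bars cannot be compared.

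Of these windows, 3 are shown since they stand for the kinds of pattern described below: *Cox6a2*, the muscle isoform that changed with age, *Cox8a*, a widespread subunit with a small difference, and *Uqcrc1*, a core protein of complex III. Capitals mark the E box and a MEF2 motif in *Cox6a2*, the ETS, YY1 and ERR motifs in *Cox8a*, and the NRF1 motif in *Uqcrc1*, which was searched with any base allowed at the sixth position. In order, the windows are chr1:192219667-192219966 (minus strand), chr1:213833574-213833873 (minus strand) and chr8:118467973-118468272 (plus strand).
Cox6a2: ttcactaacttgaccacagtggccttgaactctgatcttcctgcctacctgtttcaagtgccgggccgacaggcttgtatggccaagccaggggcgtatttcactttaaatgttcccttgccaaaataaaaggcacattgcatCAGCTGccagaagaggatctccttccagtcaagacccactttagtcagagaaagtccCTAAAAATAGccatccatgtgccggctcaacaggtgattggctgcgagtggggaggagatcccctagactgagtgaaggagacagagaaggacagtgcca
Cox8a: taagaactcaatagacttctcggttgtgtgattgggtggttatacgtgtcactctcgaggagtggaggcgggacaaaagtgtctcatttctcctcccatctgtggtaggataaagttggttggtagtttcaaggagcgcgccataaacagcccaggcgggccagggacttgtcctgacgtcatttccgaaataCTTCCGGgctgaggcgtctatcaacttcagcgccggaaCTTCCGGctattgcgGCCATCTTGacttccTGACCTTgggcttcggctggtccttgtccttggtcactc
Uqcrc1: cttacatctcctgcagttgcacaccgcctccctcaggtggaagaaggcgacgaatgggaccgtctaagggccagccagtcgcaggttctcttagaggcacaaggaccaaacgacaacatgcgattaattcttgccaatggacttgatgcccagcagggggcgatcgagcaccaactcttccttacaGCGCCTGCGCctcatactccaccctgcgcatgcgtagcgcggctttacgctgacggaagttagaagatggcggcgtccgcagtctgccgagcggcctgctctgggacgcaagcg
In the *Cox6a2* window, the E box CAGCTG starts at position 144 and the MEF2 motif at position 201. The MEF2 motif was searched after this sequence had been seen. The 1 match among the 71 member genes (1.41%) is the window from which the motif was chosen. Its share thus cannot be compared with the 0.120% of the genes on the array or the 0.137% of all windows. E boxes and MEF2 motifs are known binding motifs of muscle transcription factors. The *Cox8a* window holds ETS motifs at positions 194 and 232, a YY1 motif at 247 and an ERR motif at 262.

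Most of the respiratory chain and ATP synthase genes differed by less than 1.5-fold between the ages. In TSPCs-7d over TSPCs-1d, 0 of 80 genes passed 2-fold, against 2.95% of all 14217 genes (1.87% higher and 1.08% lower). In TSPCs-7d over TSPCs-56d, 1 gene was lower (*Ndufa4l2*, by deposited signals of which 1 is dim, that is, under 48.9, the 25th percentile of all signals), against 3.81% of all genes past the cutoff in either direction (2.1% higher and 1.72% lower). In TSPCs-56d over TSPCs-1d, 1 gene was lower (*Cox6a2*), against 3.76% (2% higher and 1.77% lower). At 1.5-fold, the counts were 2 (8.15% of all genes), 1 (10.4%) and 2 (11.4%) in the same order, made up of *Cox6a2*, *Ndufa4l2* and *Ndufs4*. The accessory subunit gene *Ndufs4* was dim on all arrays (11.4, 19.1 and 13.8), so that no fold can be read. Of the 80 genes, 76 lay above the dim limit on all arrays, 2 (*Ndufs4* and *Cox7b2*) lay below it on all and 2 (*Cox8b* and *Ndufa4l2*) on some. A mean signal over 1000 was reached by 66 members. Over all 2393 genes of such signal, 1.92%, 2.59% and 2.55% passed 2-fold in these comparisons. Beside such shares, a count of 0 or 1 of 80 genes past 2-fold says little about the members.

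*Cox6a2*, which encodes the heart and skeletal muscle isoform of subunit 6A, had a signal of 854 at day 1, 459.7 at day 7 and 338 at day 56. It was highest in TSPCs-1d and lowest in TSPCs-56d, and all signals were well above the dim limit. The gene was 2.53-fold lower at day 56 than at day 1 (log2 ratio -1.34) and 1.86-fold lower at day 7 than at day 1 (-0.89). TSPCs-7d was 1.36-fold above TSPCs-56d (0.44). The widespread isoform *Cox6a1* had 5562 at day 1, 5109 at day 7 and 5479 at day 56, with log2 ratios of -0.021 for TSPCs-56d over TSPCs-1d and -0.12 for TSPCs-7d over TSPCs-1d. The log2 ratio of *Cox6a2* minus that of *Cox6a1* was -1.32 and -0.77 in these comparisons.

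The other muscle isoforms did not share this profile. *Cox7a1*, the muscle form of subunit 7A, had 96.1 at day 1, 76.6 at day 7 and 88.5 at day 56, with log2 ratios between -0.33 and -0.12 over the 3 comparisons. *Cox8b*, the muscle form of subunit 8, had 35.6 at day 1, 46.6 at day 7 and 51.0 at day 56. Its signals in both younger cultures were dim, and with these raised to 48.9 it was at least 1.04-fold higher at day 56 than at day 1. The widespread *Cox8a* had 5050.2 at day 1, 4253 at day 7 and 5061 at day 56, and was 1.19-fold lower at day 7 than at day 1 and 1.19-fold lower than at day 56.

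Markers of skeletal muscle stood beside *Cox6a2* as follows. Of 28 listed genes 26 were measured, and 9 were dim on all arrays, including *Myod1* (23.6 at day 1, 29.0 at day 7 and 32.5 at day 56), the master factor of the muscle lineage. The summed signal of the list was 12979 at day 1, 5859.97 at day 7 and 9864 at day 56. Most of it came from 3 genes, *Tnnc1*, the slow and cardiac troponin C, with 6489, 951 and 127, *Acta1*, skeletal actin, with 1772, 855 and 5327, and *Myh1*, a fast myosin, with 3149, 2641 and 2782. *Tnnc1* was highest in TSPCs-1d and lowest in TSPCs-56d, as *Cox6a2* was, whereas *Acta1* was highest in TSPCs-56d. The list as a whole did not share this order: at day 56, 13 of the 26 were higher and 13 lower than at day 1 (median log2 ratio -0.030). At day 7, 8 were higher and 17 lower than at day 1 (-0.24), with *Tnni1* unchanged. Past 2-fold, 3 of the 26 were lower (1.08% of all genes) and 0 higher (1.87%) at day 7 than at day 1. They were *Tnnc1*, *Acta1* and the fast myosin gene *Myh2* (88.0 at day 1, 23.7 at day 7 and 45.8 at day 56), which was dim at day 7 and so only at least 1.80-fold lower. At day 56, 1 was lower (*Tnnc1*) and 1 higher (*Acta1*) than at day 1, against 1.77% and 2% of all genes. Over the 6 cardiac markers measured, the summed signal lay between 536 and 593. Of these, the cardiac myosin gene *Myh6* had 107 at day 1, 43.7 at day 7 and 43.3 at day 56, at least 2.20-fold lower at day 7 and at least 2.20-fold lower at day 56 than at day 1, with both later signals dim. *Myh6* stood apart from its list: at day 56, 5 of the 6 were higher and 1 lower than at day 1 (median log2 ratio 0.22). At day 7, 3 were higher and 3 lower than at day 1. In bulk RNA, fewer cells of a type and less RNA per cell cannot be told apart, and the part of muscle-type cells in the *Cox6a2* signal was not tested.

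**Figure D2:**
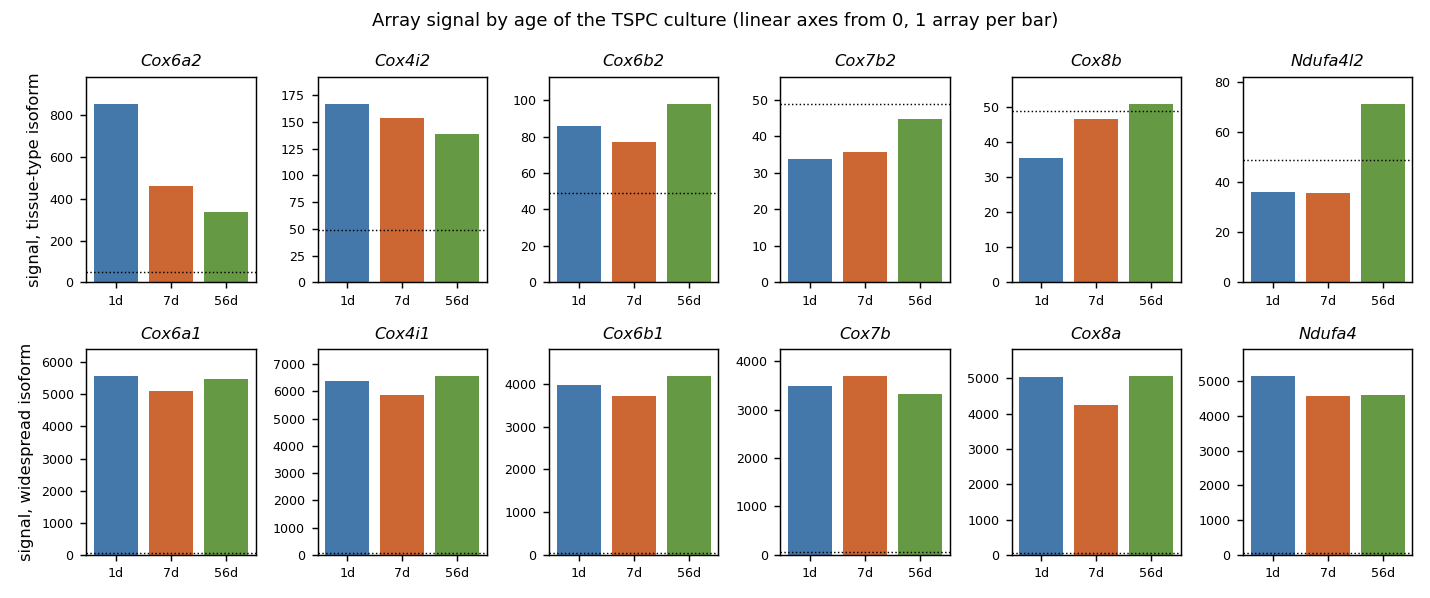
Array signal (linear axes from 0, each panel with its own scale) of 6 tissue-type isoforms (upper row) and their widespread counterparts (lower row), 1 bar per array in the order of age, with a dotted line at the dim limit of 48.9. *Cox6a2* decreases with age (854, 459.7 and 338), while the widespread forms lie within a narrow range.

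*Ndufa4l2*, a paralog of the complex IV subunit gene *Ndufa4* that is known to be induced by hypoxia, had a signal of 36.0 at day 1, 35.5 at day 7 and 71.2 at day 56. Both younger cultures were dim, so the gene was at least 1.46-fold higher at day 56 than at day 1, and at least 1.46-fold lower at day 7 than at day 56. *Ndufa4* itself had 5148 at day 1, 4571 at day 7 and 4606 at day 56. *Cox4i2*, the form of subunit 4 of lung and of hypoxic cells, had 167 at day 1, 154 at day 7 and 138 at day 56, and the widespread *Cox4i1* had 6394 at day 1, 5857 at day 7 and 6557 at day 56. Among 16 genes known to be induced by hypoxia, 3 were more than 2-fold higher at day 56 than at day 1 (2% of all genes) and 0 lower (1.77%), with a median log2 ratio of -0.012. The 3 were the stress-responsive gene *Ndrg1* (242 at day 1, 195 at day 7 and 846 at day 56), the vasodilator peptide gene *Adm* (118, 110.3 and 349) and the collagen prolyl hydroxylase gene *P4ha2* (1240.4, 996 and 2657). In TSPCs-7d over TSPCs-1d, 0 of the 16 passed the cutoff (2.95% of all genes), 15 were lower (47.6% of all genes) and the median was -0.25. In TSPCs-7d over TSPCs-56d, 14 of 16 were lower (56.7% of all genes), with a median of -0.23. The same 3 genes were past 2-fold there (1.72% of all genes lower), in a comparison that shares the array of TSPCs-56d. The part of a hypoxic response in the *Ndufa4l2* signal was not tested.

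The remaining tissue-type forms had low signals. *Cox6b2*, the testis form of subunit 6B, had 86.0 at day 1, 77.2 at day 7 and 97.9 at day 56, and the widespread *Cox6b1* had 3982 at day 1, 3711 at day 7 and 4182 at day 56. *Cox7b2* was dim on all arrays (33.9, 35.7 and 44.7), while *Cox7b* had 3482 at day 1, 3690.2 at day 7 and 3319 at day 56. *Cox7a2l*, which takes part in the assembly of supercomplexes, had 3997 at day 1, 3845 at day 7 and 4068 at day 56, and the c-ring subunit gene *Atp5mc3* had 7134 at day 1, 6962 at day 7 and 7258 at day 56. The pseudogene *Cox6c-ps1*, which the symbol rule includes, had 142 at day 1, 155 at day 7 and 187 at day 56.

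The absolute log2 ratio had a median of 0.11 over the members and 0.17 over all genes in TSPCs-7d over TSPCs-1d, 0.11 and 0.20 in TSPCs-7d over TSPCs-56d, and 0.080 and 0.21 in TSPCs-56d over TSPCs-1d. Among genes with a mean signal over 1000 it was 0.14, 0.15 and 0.15. The spread in log2 ratio between probe sets of the same gene was gauged from 1714 genes with a pair of probe sets over the median signal. Both probe sets of a pair were read on the same arrays, so this spread does not measure the variation between cultures or arrays. The 90th percentile of the difference within such pairs was 0.39, 0.44 and 0.53 on the log2 scale in these comparisons. Among the 76 members that were not dim on any array, 1 (*Cox6a2*) lay beyond the limit in each comparison, and in TSPCs-7d over TSPCs-56d it lay close to the limit. Of all genes, 17.2%, 18.0% and 13.9% lay beyond it. These shares include dim genes, and the share among genes of like signal was not computed, so they cannot be set directly against the members. The differences given below for the other genes among these 76 members are smaller than these limits.

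**Figure D3:**
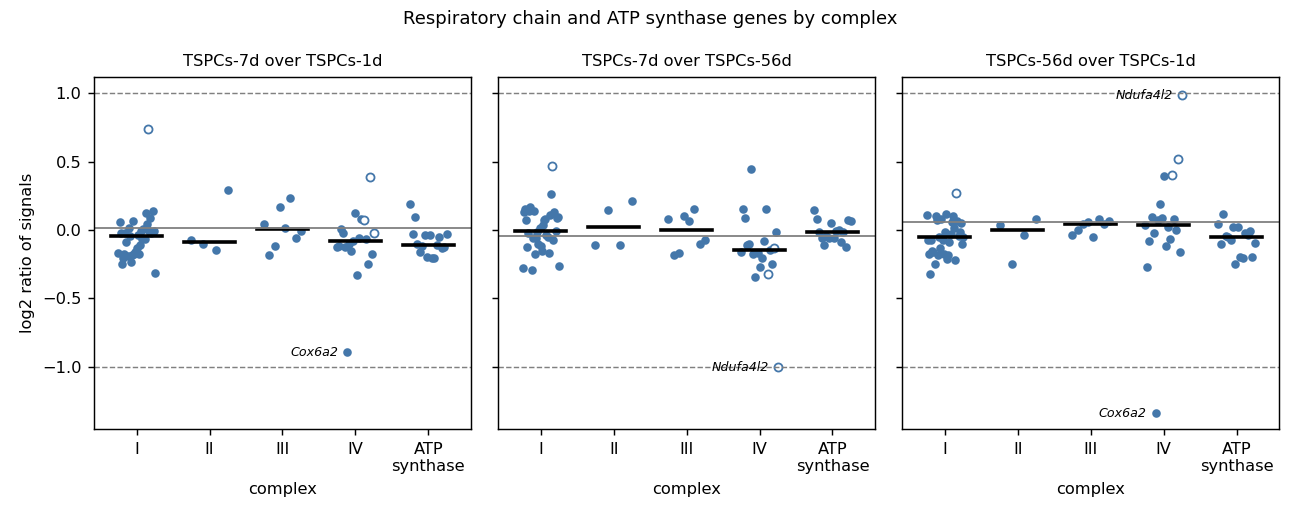
Each point is the log2 ratio of signals of 1 gene, by complex in the 3 comparisons, with a black bar at the median of the complex, a grey line at the median of all genes and dashed lines at 2-fold; open points are dim on at least 1 array. Nearly all points lie within 0.4 of 0, and *Cox6a2* is the lowest in TSPCs-56d over TSPCs-1d (-1.34).

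In TSPCs-7d over TSPCs-1d, the signal was lower for 59 and higher for 21 of 80 genes (53 lower under quantile normalization and 62 under median scaling), against 47.6% of all genes and 49.2% of those with a mean signal over 1000 lower. The median log2 ratio was -0.064, against 0.014 for all genes. Against TSPCs-56d, 48 genes were lower and 32 higher in TSPCs-7d (lower for 56.7% of all genes and 51.7% of those over 1000), with a median of -0.042, against -0.046 for all genes. With the arrays scaled to a common median, this split turned to 31 lower and 49 higher. In TSPCs-56d over TSPCs-1d, 46 were lower and 34 higher (lower for 42% of all genes and 50.4% of those over 1000), with a median of -0.025, against 0.057, and with that scaling 69 were lower and 11 higher. The size of these small differences thus depends on the scaling, as does the order of TSPCs-7d and TSPCs-56d. Over TSPCs-1d, the medians of TSPCs-7d and TSPCs-56d stayed below 0, with -0.080 and -0.12 under median scaling and -0.032 and -0.051 under quantile normalization. Both comparisons of TSPCs-7d rest on the same array, and both over TSPCs-1d share the array of TSPCs-1d.

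The complexes were then described by subunit class. The classes were set after the values had been seen, no test of a difference between them was run, and they are a description. Of 6 core subunits of the matrix arm, 4 were higher at day 7 than at day 1 (median log2 ratio 0.065) and 5 higher than at day 56 (0.10). *Ndufv1*, which binds NADH, had 901 at day 1, 992 at day 7 and 933 at day 56, and the iron-sulphur subunit *Ndufs1* had 1025 at day 1, 1115 at day 7 and 1036 at day 56. *Ndufs3*, of the quinone-binding part, had 918, 946 and 788 in the same order, *Ndufs7* 1116, 1186 and 1082, *Ndufs8* 1382, 1361 and 1365 and *Ndufv2* 3274, 3250.3 and 3049.9.

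Of 18 genes of the membrane arm, 14 were lower at day 7 than at day 1 (median -0.12) and 12 lower than at day 56 (-0.045, which turned to 0.034, with 6 of 18 lower, when the arrays were scaled to a common median). *Ndufa13*, also known as a cell death regulator, had 3375 at day 1, 2838 at day 7 and 2699 at day 56, and the small subunit *Ndufa1* had 5818 at day 1, 5180.3 at day 7 and 6277 at day 56. Among 9 accessory genes of the matrix arm, 8 were lower at day 7 than at day 1, with a median of -0.045. *Ndufv3* had 1052 at day 1, 848 at day 7 and 1017 at day 56 and a log2 ratio of -0.31 in TSPCs-7d over TSPCs-1d, while its weaker probe set gave -0.069. The accessory *Ndufa6* had 2056, 1937 and 1728 by age and *Ndufa7* 2864, 2508 and 3075, and *Ndufb5* of the membrane arm had 3674, 3577 and 3978.

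The 4 genes of complex II differed by less than 1.5-fold between all ages. *Sdhd*, a membrane anchor, had 1692 at day 1, 2072 at day 7 and 1793 at day 56, so that the level at day 7 was 1.22 times that at day 1 and 1.16 times that at day 56. On its other probe set, day 7 was highest as well (864, 984 and 811 by age). The other anchor *Sdhc* had 3534 at day 1, 3189 at day 7 and 3441 at day 56, the flavoprotein *Sdha* had 1234 at day 1, 1173 at day 7 and 1263 at day 56, and the iron-sulphur subunit *Sdhb* had 2545 at day 1, 2371 at day 7 and 2142 at day 56. Against TSPCs-1d, these 3 were lower in TSPCs-7d, by 0.072 to 0.15 on the log2 scale.

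In complex III, for TSPCs-7d over TSPCs-1d, 4 of 4 core genes were higher (median 0.11) and 4 of 4 small subunits lower (-0.089). In TSPCs-7d over TSPCs-56d, the counts were the same, with medians of 0.094 and -0.13. There, 3 of 4 small subunits were lower under median scaling (median -0.054) and under quantile normalization (-0.073). Over TSPCs-1d, 3 of 4 were lower under quantile normalization (-0.062) and lowess centring (-0.075). All 4 core genes stayed higher in both comparisons under these scalings. *Uqcrfs1*, the Rieske iron-sulphur protein, had 2425 at day 1, 2847 at day 7 and 2559 at day 56. The core protein *Uqcrc1* had 2075 at day 1, 2328 at day 7 and 2163 at day 56, *Uqcrc2* had 2494, 2525 and 2408 in this order, and *Cyc1*, which encodes cytochrome c1, had 2219.6, 2289 and 2163. Of the small subunits, *Uqcr10* had 6789 at day 1, 5971 at day 7 and 6789 at day 56, *Uqcr11* 2528, 2328 and 2611 and *Uqcrq* 6091, 6069 and 6377.

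In complex IV, 9 of 11 widespread subunits were lower at day 7 than at day 1 (median -0.080) and 9 lower than at day 56 (-0.11). Against day 56 the median was -0.034 under median scaling and -0.029 under quantile normalization, with 8 of 11 lower in both. *Cox7b* was higher in TSPCs-7d in both comparisons (0.084 and 0.15 on the log2 scale), as was *Cox5a* (0.0040 and 0.085), which binds thyroid hormone metabolites. In TSPCs-56d over TSPCs-1d, the median of the widespread subunits was 0.025, against 0.057 for all genes, and it turned to -0.070 under median scaling (11 of 11 lower) and to -0.022 under quantile normalization (7 of 11 lower).

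For ATP synthase, 14 of 16 genes were lower at day 7 than at day 1, with a median of -0.11. The 2 that were higher belong to the F1 head. *Atp5f1a*, the alpha subunit, had 2530.2 at day 1, 2888 at day 7 and 2613 at day 56, and *Atp5f1c*, the gamma subunit of the rotating shaft, had 4390.2 at day 1, 4701 at day 7 and 4751 at day 56. The catalytic beta subunit gene *Atp5f1b* had 5101 at day 1, 5004 at day 7 and 4740.2 at day 56, and the epsilon subunit gene *Atp5f1e* 4563 at day 1, 4087 at day 7 and 4398 at day 56. All 6 genes of the membrane part were lower at day 7 than at day 1 (median -0.15), such as *Atp5mg* with 4435, 3839.8 and 3862 by age, *Atp5mk* with 6091, 5289.7 and 5284 and *Atp5me* with 2215, 1934 and 1862. Of the peripheral stalk, *Atp5pd* had 5766 at day 1, 5259 at day 7 and 5742 at day 56. *Atp5if1*, which encodes the inhibitor that blocks ATP hydrolysis, had 3448 at day 1, 3178 at day 7 and 3278 at day 56. Its other probe sets gave 279, 226 and 224 in this order, and 43.5, 55.8 and 58.0. Against TSPCs-56d, the median of ATP synthase was -0.014, and it turned to 0.066 under median scaling, 0.050 under quantile normalization and 0.016 under lowess centring.

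The F1 head by itself had 3 of 5 genes lower at day 7 than at day 1, with a median of -0.028 (0.0043 under quantile normalization), and 3 of 5 lower than at day 56, with -0.015 (0.064 under median scaling). Taking the core subunits of complexes I and III and the F1 head as 1 class, 10 of 15 were higher at day 7 than at day 1 (median log2 ratio 0.044), while 36 of the 41 other subunits of these complexes without *Atp5if1* were lower (-0.11). Under median scaling, quantile normalization and lowess centring, the medians were 0.028, 0.049 and 0.055 for the core class and -0.12, -0.083 and -0.098 for the others. In TSPCs-7d over TSPCs-56d the medians were 0.088 and -0.051, and that of the other subunits turned to 0.028 under median scaling and 0.0085 under quantile normalization. The small subunits of these families have many processed pseudogenes in mammals, and the array's probe sets were not checked against them.

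**Figure D4:**
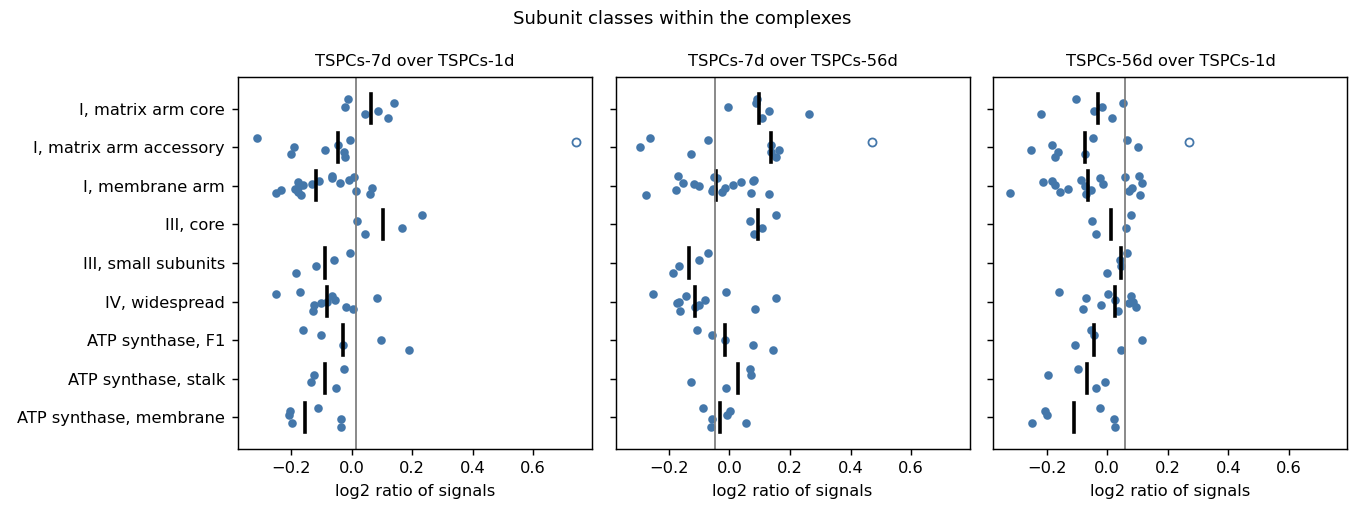
Each point is the log2 ratio of signals (horizontal) of 1 gene, by subunit class, in the 3 comparisons, with a black bar at the median of the class and a grey line at the median of all genes; the open point is dim on all arrays. In TSPCs-7d over TSPCs-1d the core of complexes I and III lies above 0 (medians 0.065 and 0.11), and the membrane arm of complex I and the membrane part of ATP synthase below it (-0.12 and -0.15).

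Other genes of mitochondrial respiration were taken from lists. The genes of the mitochondrial ribosome, which translates the subunits encoded in the organelle, were mostly higher in TSPCs-7d. Of 76 genes, 57 were higher and 19 lower than at day 1 (median 0.10, 47.6% of all genes lower), and 64 higher and 12 lower than at day 56 (0.18, 56.7% lower). In TSPCs-56d over TSPCs-1d, 26 were higher and 50 lower (-0.046, 42% lower). In each comparison 0 of the 76 passed 2-fold, against 2.95%, 3.81% and 3.76% of all genes in this order. Assembly factors of the complexes (42 of 46 listed were measured) had medians of 0.0089 and 0.0069, and 14 genes of pyruvate dehydrogenase and the TCA cycle 0.023 and -0.018, with 0 past 2-fold. *Idh2*, the mitochondrial isocitrate dehydrogenase that makes NADPH, had 1821 at day 1, 2425 at day 7 and 1322 at day 56. Of 15 factors of mitochondrial biogenesis, 1 passed 2-fold. This was the coactivator gene *Ppargc1a*, with low signals of 49.9 at day 1, 58.9 at day 7 and 116 at day 56. The difference was 2.32-fold for day 56 over day 1 (2% of all genes higher). *Nrf1* had 166 at day 1, 229.7 at day 7 and 171 at day 56. Of 12 carriers, uncoupling proteins and porins, 0 passed 2-fold in any of the 3 comparisons. With shares of 2.95% to 3.81% over all genes, a count of 0 or 1 in such short lists says little about them.

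**Figure D5:**
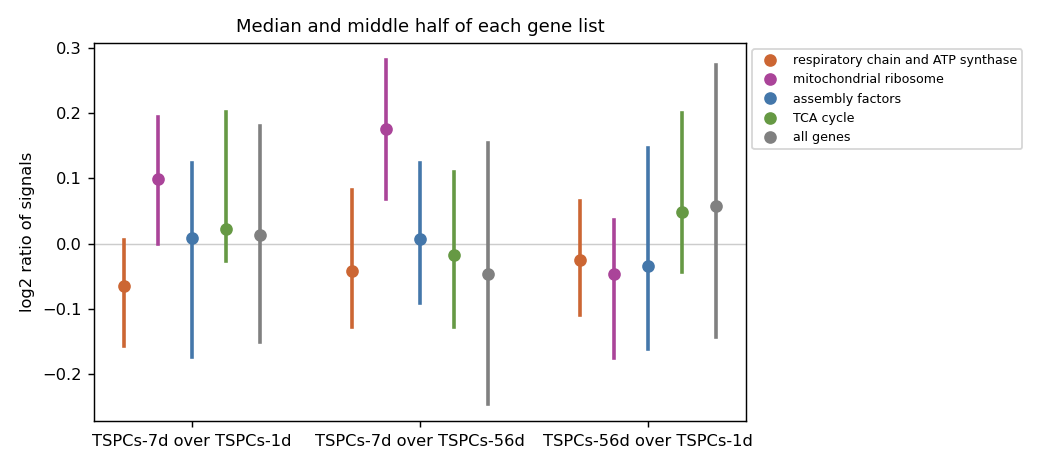
Median (point) and 25th to 75th percentile (line) of the log2 ratio of signals for 4 gene lists and all genes in the 3 comparisons. In TSPCs-7d over TSPCs-1d the respiratory chain and ATP synthase lie at -0.064 and the mitochondrial ribosome at 0.099.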

How the data were processed

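The authors scanned the arrays and, per the methods, normalized and summarized them with MAS5 and RMA, whereas the processing notes of the submitters give only MAS5. The deposited values are in units of intensity on a linear scale, and the array medians were 107 at day 1, 108 at day 7 and 114 at day 56. Detection calls were not used here. Signals were used as deposited. Folds were ratios of signals between arrays, with the cutoff of 2 of the methods, and each gene was represented by its brightest probe set (by mean signal). The number of arrays limits the precision. Platform names gave a single gene for 20826 probe sets, several for 436 and none for 9780. All 80 members were found by gene ID in the RefSeq table of GRCr8.

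Signals under 48.9 (the 25th percentile) were called dim. A fold with 1 dim signal is given as "at least", with that signal raised to 48.9. The members and lists were chosen with earlier results of these data known. Named genes are the tissue-type isoforms, complex II, *Cyc1*, the complex I core, genes past 2-fold, and the 2 highest and 2 lowest of each complex and comparison, and *Cox5a* was added after its values were seen. Marker lists not given in the report were those of fat, smooth muscle, endothelium, blood and cartilage. Their summed signals by age were 498, 450.2 and 477 for fat, 33543, 28013 and 37019 for smooth muscle, 176, 173 and 187 for endothelium, 728, 694 and 794 for blood and macrophages, and 8691, 8354 and 2987 for cartilage. For the tendon list they were 45388, 49387 and 51954. The alternatives were division by the array median, quantile normalization, lowess centring (span 0.2), floors at the 25th percentile and the median (110.1), a pseudocount of 32, a fold of 1.5, and other choices of probe set. The calculation was tested on simulated data. Python 3.11.15, numpy 2.4.6, pandas 2.3.3, statsmodels 0.14.6 and matplotlib 3.10.9 were used.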

Additional observations from a re-analysis of the deposited data

How the results depend on the processing

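The 1 gene past 2-fold in TSPCs-7d over TSPCs-56d, *Ndufa4l2*, was lost (0 genes) with each array divided by its median, with quantile normalization, with lowess centring, with low signals raised to the 25th percentile or to the median, and after adding a pseudocount of 32. At 1.5-fold, 2 genes were past the cutoff in TSPCs-7d over TSPCs-1d and 2 in TSPCs-56d over TSPCs-1d. The other 22 of 30 alternative counts stayed within 1.5 times the main count. Of 162 alternative medians over all members or a complex, 160 moved by at most 0.1 on the log2 scale. The exceptions, both in TSPCs-7d over TSPCs-56d, were complex IV with a floor at the median (-0.011) and complex II with every probe set counted (0.15). For single named genes, 3 of 1125 alternative values moved by more than the spread between probe sets, all of them of *Ndufa4l2*: in TSPCs-7d over TSPCs-56d it was -0.54 with the floor at the 25th percentile and 0 with the floor at the median, and 0 in TSPCs-56d over TSPCs-1d with the floor at the median. That spread (0.39, 0.44 and 0.53 in the 3 comparisons) exceeds the log2 ratios of nearly all members. A gene could thus lose or reverse its difference and still count as unmoved, so this count does not show that single genes are stable. A small median near 0 can also change sign within the tolerance of 0.1: over all members, TSPCs-7d over TSPCs-56d had 0.037 after division by the median and 0.0082 after quantile normalization. No paired analysis was possible because each age has 1 array.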
